A study of Mus musculus with 12 samples.

Results

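Primordial germ cells with a catalytically dead TET1 were compared with primordial germ cells of the Tet1 knockout, across all genes, to ask which transcripts differ when the inactive enzyme is encoded and when the gene is disrupted. The comparison used 6 of the 12 RNA-seq libraries of the series, chosen by their sample names: 3 of genotype Tet1HxD/HxD (HxD1 to HxD3) and 3 of genotype KO Tet1-/- (KO1 to KO3). All cells came from female mouse embryos at stage E14.5, carried an Oct4-GFP reporter and were sorted by it, and RNA was extracted from 5000 cells. The other 6 libraries, 3 wild type (WT) and 3 Tet1V/V, a mutant described as stalling at 5-hydroxymethylcytosine, entered the statistical fit, and WT levels are given beside the others for scale. The labels name neither the deleted part of Tet1 in the knockout nor its strain, and do not state whether a group's libraries are separate embryos or litters. P-values therefore reflect only library-to-library spread, part of which may be technical. TET1 protein was not measured here.

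TET1 oxidizes 5-methylcytosine to 5-hydroxymethylcytosine and further products, a route by which methyl groups are removed from DNA. It also binds chromatin proteins such as the SIN3A co-repressor and the sugar transferase OGT, and in embryonic stem cells it occupies many promoters that carry Polycomb marks, so an inactive enzyme could in principle keep part of its work. Female primordial germ cells at this stage leave the pluripotent state, switch on germline genes silenced by methylation elsewhere in the body, and enter meiosis.

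The libraries held between 22737470 and 28410605 counts in HxD and KO, but the number of genes with a count was lowest in KO3 (12568) and highest in HxD3 (17614). Low genes were followed as a set of 2938 whose mean over all libraries was 1 to 5 CPM (counts scaled by TMM to a common library total). Of these, 43.7% were at 0 in HxD1, 45.9% in KO3 and 27.3% in KO1, against 5.00%, 1.80% and 2.62% in HxD2, HxD3 and KO2. HxD1 and KO3 therefore had the largest shares, and KO1 the next. Results without HxD1 and KO3, which leave KO1 in, are given for some genes and lists only. The germ cell markers summed to 3592 to 3951 CPM in HxD and 3804 to 4112 CPM in KO, which overlapped. The granulosa sums, 16.2 to 37.5 against 21.0 to 33.7 CPM, overlapped too, with the defining marker Foxl2 at no more than 1.12 CPM in any of the 6 libraries. The stroma sums were 4.83 to 16.1 and 3.13 to 16.4 CPM, the erythroid sums 0.709 to 10.7 and 0.166 to 34.3 CPM, and the leukocyte sums 1.09 to 2.80 and 0 to 7.13 CPM. The epithelium list summed to 22.7 to 47.2 CPM in HxD and 34.9 to 57.6 CPM in KO, and the testis support list to 2.31 to 8.39 and 0 to 4.27 CPM. In the testis list Sox9 was at 0 in all 6 libraries. Amh was at 1.87, 0.292 and 0.336 CPM in HxD and 0 in all KO libraries, and Cyp11a1 reached 6.52 CPM in HxD1 and 4.27 CPM in KO3. The endothelial sum, 158.8 to 204.3 against 192.5 to 264.7 CPM, was almost all Pecam1, which germ cells also express. Y-linked genes summed to at most 0.0417 CPM in HxD and to 2.73 CPM in KO3. Of the single markers, Mael, Cd68 and Amh had all HxD libraries above all KO, and Tfap2c all below.

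No gene passed the test between HxD and KO. Of 16166 genes tested, 0 were called (0%; edgeR quasi-likelihood F test, Benjamini-Hochberg adjusted p under 0.05), while 514 had an unadjusted p under 0.05, 310 with a higher level in HxD (1.92%) and 204 with a lower one (1.26%). Limma-voom called 0 genes as well, and DESeq2 called 28, of which 25 were under 5 CPM in both groups and 22 were at 0 in all 3 libraries of a group. All 3 HxD libraries were above all 3 KO libraries for 796 genes (4.92%) and below them for 602 (3.72%). The median log2 fold change, HxD minus KO, was 0.01 over all genes.

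A p that misses the threshold does not show that the groups are alike, so the interval of each difference was used to say what the data bound. The 95% interval lay within 1 on the log2 scale either way, a 2-fold difference, for 6704 genes (41.5%). The share was 62.6% among the 10703 genes averaging at least 5 CPM in HxD or KO, where the median interval reached 0.57 to each side. It was 0 of the 5463 genes under 5 CPM in both groups, where the median interval reached 5.32 to each side. Among the 10703 genes, 547 had all HxD libraries above KO and 532 below. Among the 5463 low genes, 249 were above and 70 below, a split whose relation to the detection differences between libraries was not tested. For none of these low genes was a difference of that size bounded.

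**Figure D1:**
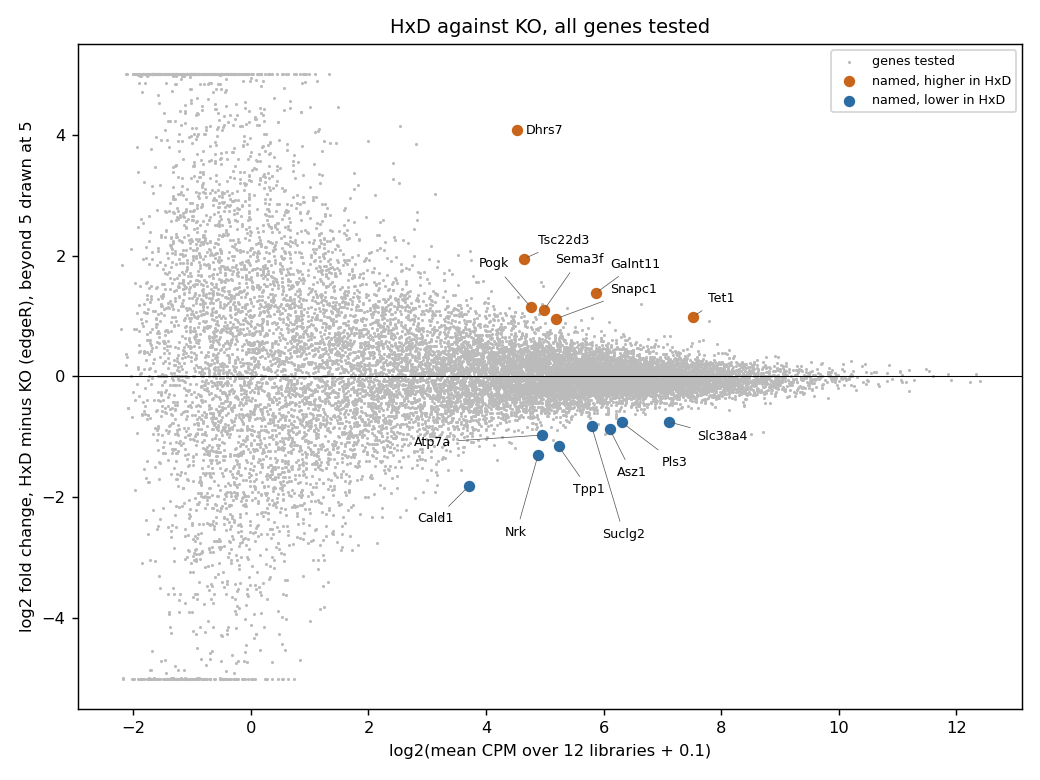
Log2 fold change of HxD minus KO against log2 mean CPM over the 12 libraries (plus 0.1) for each tested gene in grey, with values beyond 5 drawn at 5. The named genes with the smallest p in each direction are coloured, orange for higher in HxD and blue for lower, and the grey cloud widens toward low expression.

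Tet1 itself was higher in all HxD libraries than in all KO libraries, but was not called. It was at 227, 222 and 286 CPM in HxD1, HxD2 and HxD3 and at 131, 158 and 80.8 CPM in KO1, KO2 and KO3, with WT at 91.4, 180.1 and 215 CPM. Every HxD library was also above every WT library, and KO and WT overlapped. The means were 244.8 ± 35.5 and 123 ± 39.3 CPM (SD, n = 3), a log2 fold change of 0.99 ± 0.24 (SE; 95% interval 0.49 to 1.49; unadjusted p = 3.35e-04, edgeR adjusted p = 1). The knockout libraries still held Tet1 counts, and the table counts the whole gene, so these values do not check the knockout allele. Tet1 was called in 3 of 23 alternative analyses: with no filter on low counts, without KO2, where the log2 fold change was 1.22, and without WT1. The related dioxygenase Tet2 was at 52.2 ± 42.1 CPM in HxD and 45.3 ± 18.2 CPM in KO, with a log2 difference of 0.20 ± 0.37. Tet3, the third member, was at 10.2 ± 6.39 and 5.96 ± 2.25 CPM, with overlapping groups.

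The next values are those of the genes with the smallest p, none of which passed the test. Because DNA oxidation by TET1 acts on CpG sites, the 250 bases before the first listed start of 5 genes are shown: Galnt11 and Dhrs7, the pair nearest the threshold, and Gpat2, Mael and Asz1 of the piRNA pathway, which lay on opposite sides. The sequences are from RefSeq on GRCm38.p6, read 5′ to 3′ along the gene, and capitals mark each CpG.
Galnt11, chr5:25222622-25222871, plus strand: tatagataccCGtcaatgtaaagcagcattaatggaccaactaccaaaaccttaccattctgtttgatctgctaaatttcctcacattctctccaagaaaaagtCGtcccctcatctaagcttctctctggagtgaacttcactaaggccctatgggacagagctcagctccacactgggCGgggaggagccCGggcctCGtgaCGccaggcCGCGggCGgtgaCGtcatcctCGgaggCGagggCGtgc
Dhrs7, chr12:72664829-72665078, minus strand: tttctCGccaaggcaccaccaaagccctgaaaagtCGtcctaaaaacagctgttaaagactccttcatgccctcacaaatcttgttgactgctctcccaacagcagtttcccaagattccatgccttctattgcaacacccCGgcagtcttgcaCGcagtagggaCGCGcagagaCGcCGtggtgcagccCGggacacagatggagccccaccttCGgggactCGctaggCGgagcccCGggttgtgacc
Gpat2, chr2:127424949-127425198, plus strand: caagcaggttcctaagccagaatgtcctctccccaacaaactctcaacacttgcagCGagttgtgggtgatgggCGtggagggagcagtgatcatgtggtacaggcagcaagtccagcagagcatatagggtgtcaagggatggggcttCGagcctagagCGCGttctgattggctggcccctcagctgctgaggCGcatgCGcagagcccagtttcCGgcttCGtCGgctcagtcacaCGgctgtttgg
Mael, chr1:166238745-166238994, minus strand: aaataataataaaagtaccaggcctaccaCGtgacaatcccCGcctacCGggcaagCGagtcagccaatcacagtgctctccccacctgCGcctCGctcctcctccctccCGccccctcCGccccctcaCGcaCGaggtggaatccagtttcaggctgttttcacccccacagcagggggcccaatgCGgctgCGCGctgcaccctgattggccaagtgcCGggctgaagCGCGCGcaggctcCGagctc
Asz1, chr6:18109062-18109311, minus strand: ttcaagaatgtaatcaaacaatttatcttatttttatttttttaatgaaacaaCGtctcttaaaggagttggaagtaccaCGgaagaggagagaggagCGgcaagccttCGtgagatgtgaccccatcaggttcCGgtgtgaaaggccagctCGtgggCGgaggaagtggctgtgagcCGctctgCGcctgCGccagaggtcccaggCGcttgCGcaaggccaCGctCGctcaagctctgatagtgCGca
They hold 13, 13, 11, 18 and 15 CpG sites. The median was 15 over the 11860 tested genes with a promoter in the table and 6 over all 27025 genes in it, so the shown promoters lie near the median of the tested genes. Methylation was not measured here.

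Galnt11 encodes an enzyme that starts O-linked sugar chains on proteins. It was at 73.0, 108.7 and 103 CPM in HxD against 31.7, 40.2 and 37.5 CPM in KO, and WT was at 42.1, 61.8 and 68.8 CPM. The 3 groups did not overlap, with WT between KO and HxD. The log2 fold change was 1.38 ± 0.24 (0.89 to 1.87, edgeR adjusted p = 0.0578). Dhrs7, a short-chain dehydrogenase/reductase gene, was at 22.6, 54.9 and 23.0 CPM in HxD against 0, 1.57 and 4.45 CPM in KO. KO was low in every library, and WT reached 5.94, 21.2 and 17.6 CPM. The log2 fold change was 4.07 ± 0.75 (2.54 to 5.60, edgeR adjusted p = 0.0673), a fitted value against a group that includes a library at 0. Each of these genes passed the threshold in 15 of 23 alternative analyses, with adjusted p from 1.43e-05 to 0.239 for Galnt11 and from 5.17e-17 to 0.9996 for Dhrs7. Their direction was higher in HxD in all 23.

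The other genes described here as higher in HxD with separated groups had an adjusted p of 1. Tsc22d3, a glucocorticoid-induced transcription regulator, was at 41.9, 17.4 and 9.14 CPM in HxD against 4.43, 7.66 and 5.68 CPM in KO. WT was higher than most HxD values, at 91.9, 56.5 and 27.7 CPM. Its log2 fold change was 1.95 ± 0.47, and 1.14 with HxD1 and KO3 left out. Snapc1, a subunit of the small nuclear RNA activating complex, was at 38.1, 43.3 and 38.4 CPM against 20.4, 24.4 and 17.0 CPM, a log2 fold change of 0.96 ± 0.26. WT was at 51.1, 39.5 and 49.4 CPM, above every KO library. Sema3f, a secreted semaphorin guidance cue, was at 43.9, 36.3 and 42.7 CPM against 23.4, 23.6 and 10.3 CPM (log2 1.10 ± 0.32). Pogk, a zinc finger gene derived from a transposon, was at 45.5, 25.6 and 35.0 CPM against 16.7, 19.4 and 11.8 CPM (log2 1.14 ± 0.33). In both, KO3 was the lowest library, and without HxD1 and KO3 the log2 differences were 0.75 for Sema3f and 0.75 for Pogk.

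On the other side, Nrk, a kinase gene on the X chromosome, was at 16.8, 15.96 and 24.3 CPM in HxD against 52.3, 56.0 and 32.2 CPM in KO. WT, at 18.6, 31.3 and 16.9 CPM, was below every KO library. The log2 fold change was -1.30 ± 0.33 (-1.97 to -0.62). Slc38a4, a paternally expressed imprinted amino acid transporter, was at 92.3, 116.5 and 121 CPM in HxD against 163, 197 and 194 CPM in KO. WT was at 86.7, 124 and 141 CPM, so KO was also above all WT libraries. The log2 fold change was -0.75 ± 0.21 (-1.17 to -0.33). Cald1, an actin-binding regulator of contraction, was at 2.996, 7.63 and 7.09 CPM against 26.8, 13.3 and 22.5 CPM (log2 -1.82 ± 0.54). Pls3, an actin-bundling protein, was at 55.9, 68.2 and 80.1 CPM against 108.1, 136 and 102 CPM (log2 -0.76 ± 0.22). Tpp1, a lysosomal peptidase, was at 15.5, 29.3 and 38.02 CPM against 40.2, 60.0 and 83.9 CPM (log2 -1.15 ± 0.31). Its difference was -0.58 with HxD1 and KO3 left out. Suclg2, a subunit of succinyl-CoA ligase, was at 33.3, 44.1 and 58.8 CPM against 72.2, 75.4 and 94.5 CPM (log2 -0.83 ± 0.26). Atp7a, a copper transporter, was at 15.7, 26.3 and 23.4 CPM against 35.9, 44.6 and 47.7 CPM (log2 -0.97 ± 0.31). Over the 23 alternative analyses the log2 difference ran from -1.05 to -0.52 for Suclg2 and from -1.13 to -0.70 for Atp7a. In all 8 genes of this side, Asz1 (described with the piRNA genes) included, the edgeR adjusted p was 1. HxD1, a library with many genes at 0, was the lowest HxD library in 7 of the 8, the exception being Nrk. The matching share over all genes was not counted, and a relation to the zeros was not tested.

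**Figure D2:**
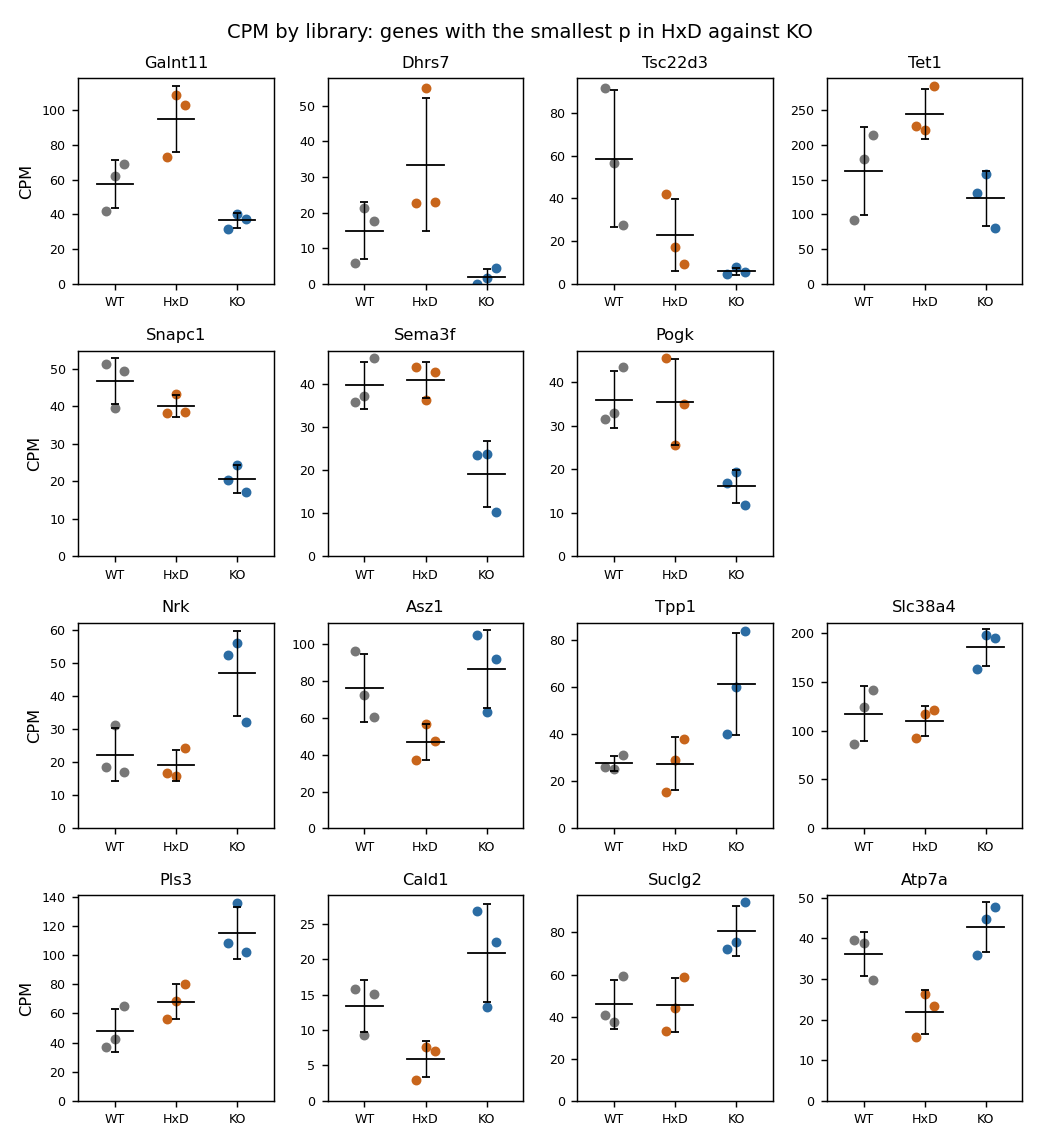
CPM of each WT, HxD and KO library (n = 3 each) for the named genes of smallest p in each direction among genes with separated groups, with a horizontal line for the mean and a bar for ± 1 SD. The upper 2 rows of panels are higher in HxD and the lower 2 rows lower, and each y axis starts at 0.

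The germline list held 46 genes whose promoters are methylated in somatic cells, 45 of them tested. None was called, and 8 had an unadjusted p under 0.05 with a higher level in HxD and 3 with a lower one. The shares of all tested genes at that p were 1.92% and 1.26%. The median log2 fold change of the list was 0.13 against 0.01 over all genes. That median depended on single libraries: it was -0.00068 without HxD1, 0.083 without KO2, 0.21 without KO1, 0.24 without KO3 and 0.25 without HxD3. All HxD libraries were above all KO for 5 of the 45 (11.1%) and below for 3 (6.67%), against 4.92% and 3.72% of all genes. Gpat2, a piRNA factor related to glycerol-phosphate acyltransferases, was at 122, 127 and 115 CPM in HxD against 70.1, 88.4 and 71.6 CPM in KO. WT was higher still, at 252, 183 and 189 CPM. The log2 fold change was 0.66 ± 0.20 (0.26 to 1.07). Mael, which acts in transposon silencing, was at 40.2, 35.2 and 46.6 CPM in HxD against 17.7, 25.7 and 22.05 CPM in KO. Both groups were far under WT, at 211, 154 and 144 CPM. Its HxD minus KO difference was 0.90 ± 0.27 (0.35 to 1.45). Tex101, a germ cell surface protein, was at 12.02, 20.5 and 10.8 CPM in HxD against 2.14, 5.30 and 7.22 CPM in KO (log2 1.56 ± 0.47), and WT spread from 40.1 to 155 CPM. Brdt, a testis bromodomain protein, was at 20.4 ± 3.07 and 10.6 ± 4.78 CPM (log2 0.94 ± 0.37). D1Pas1, a DEAD-box helicase, was lower, at 8.82 ± 2.87 and 18.7 ± 5.76 CPM (log2 -1.09 ± 0.54). Dazl, the RNA-binding licensing factor of germ cells, was at 753 ± 128 and 719 ± 119.7 CPM, with a difference of 0.07 ± 0.19 bounded between -0.32 and 0.46. Ddx4, the germ cell RNA helicase, was at 474 ± 129.9 and 442 ± 67.1 CPM, bounded between -0.31 and 0.51. In WT, Dazl averaged 1598 CPM and Ddx4 662 CPM. Of 39 tested genes of this list with a promoter in the RefSeq table, 14 (35.9%) hold the letters CACGTG, which read the same on both strands, in those 250 bases, against 8.21% of the tested genes and 6.05% of all genes in the table.

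The piRNA and transposon silencing list had 26 tested genes, 13 of them shared with the germline list. None was called. An unadjusted p under 0.05 was found for 4 higher and 3 lower, against 1.92% and 1.26% of all tested genes. All HxD libraries were above KO for 4 (15.4%) and below for 3 (11.5%), against 4.92% and 3.72%, and the median was 0.22. That median was 0.11 without HxD1 and 0.04 without HxD1 and KO3. Beside Gpat2 and Mael, the higher ones were Tudor domain proteins of the germ granule. Tdrd1 was at 39.8, 29.6 and 21.6 CPM in HxD against 19.11, 11.2 and 9.29 CPM in KO (log2 1.20 ± 0.37). Tdrd7 was at 101, 80.5 and 73.0 CPM against 60.6, 50.9 and 49.0 CPM (log2 0.67 ± 0.21). In both genes every HxD library was above every KO library and every WT library was above nearly all of HxD. The lower ones were Asz1, Tdrd12 and Morc1. Asz1, an ankyrin-repeat partner of the same granule, was at 37.1, 56.6 and 47.7 CPM in HxD against 105, 63.1 and 91.8 CPM in KO, with WT at 96.5, 72.2 and 60.3 CPM. Its log2 fold change was -0.88 ± 0.24 (-1.36 to -0.39), and -1.06 to -0.72 with single libraries left out. Without KO1, KO3 and HxD1 it was -0.26, a fit in which KO2, the lowest KO library for Asz1, stood alone for KO. Tdrd12, another Tudor protein, was at 42.4, 55.6 and 63.0 CPM against 95.7, 78.1 and 80.8 CPM (log2 -0.66 ± 0.22). Morc1, a chromatin ATPase that silences transposons, was at 18.4, 46.4 and 51.5 CPM in HxD against 61.9, 64.3 and 70.6 CPM in KO. WT was lower than KO in every library, at 11.6, 16.1 and 24.7 CPM, and HxD1 was the HxD library nearest to WT (log2 -0.76 ± 0.34).

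**Figure D3:**
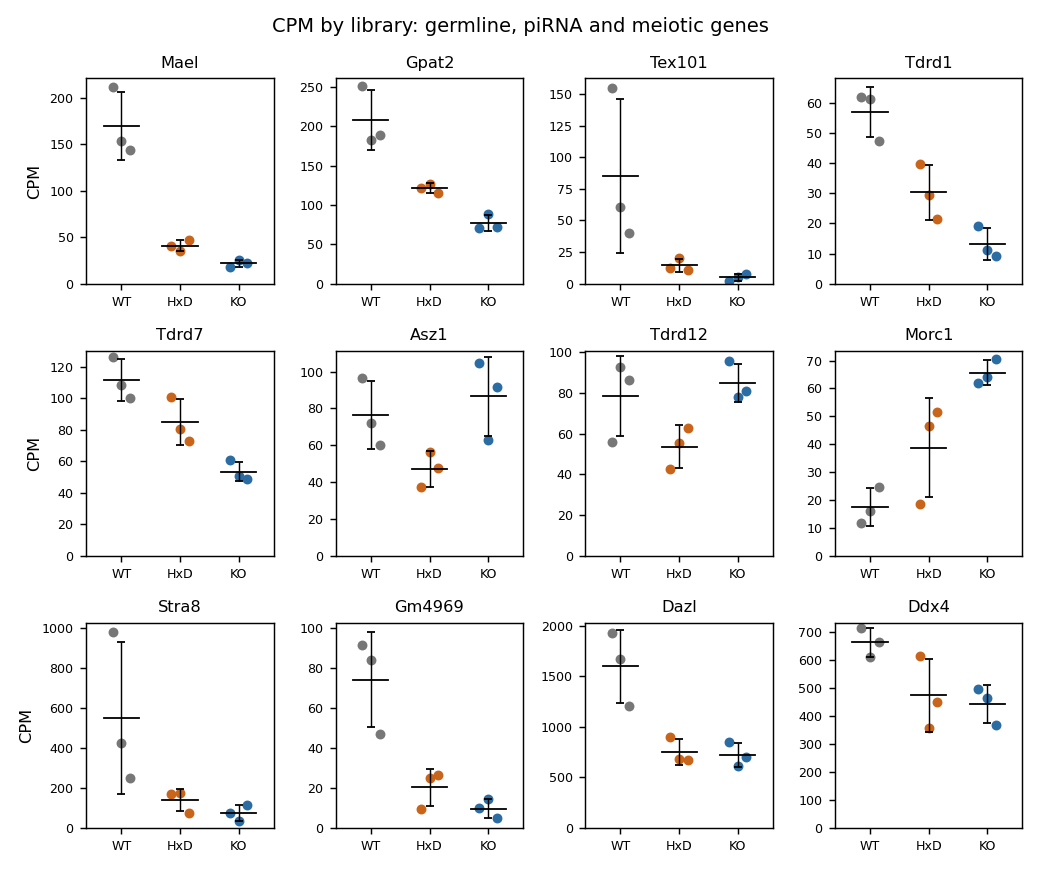
CPM of each WT, HxD and KO library (n = 3 each) for 12 germline, piRNA and meiotic genes, with the mean as a line and ± 1 SD as a bar. Mael, Gpat2, Tex101, Tdrd1 and Tdrd7 have all HxD libraries above all KO, Asz1, Tdrd12 and Morc1 all below, and Stra8, Gm4969, Dazl and Ddx4 overlap.

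Of 57 tested genes of meiotic entry and prophase, 10 shared with the germline list, none was called. All HxD libraries were above all KO for 7 (12.3%) and below for 2 (3.51%), against 4.92% and 3.72% of all tested genes. With an unadjusted p under 0.05 there were 4 higher and 1 lower, against 1.92% and 1.26% of all tested genes. The list's median was 0.26, which came to 0.11 without HxD1 and 0.098 without KO2. Stra8, the retinoic acid-induced trigger of meiosis, was at 169, 175 and 74.6 CPM in HxD against 73.9, 32.2 and 114 CPM in KO. The groups overlapped, through HxD3 and KO3, and WT was far higher at 977, 423 and 247 CPM. The log2 fold change was 0.92 ± 0.42 (0.06 to 1.79). Stra8 passed the threshold in 2 of 23 alternative analyses: with no filter on low counts (edgeR adjusted p = 0.00329), and without HxD1, KO1 and KO3. Gm4969, the symbol of Meiosin, the partner of STRA8, was at 9.45, 25 and 26.4 CPM in HxD against 9.92, 14.2 and 4.75 CPM in KO, again overlapping (log2 1.07 ± 0.42). Zglp1, a GATA-like regulator of the oogenic fate downstream of BMP, was at 28.3, 18.1 and 20.04 CPM against 11.7, 16.4 and 4.05 CPM (log2 1.05 ± 0.44). Its groups were separate, and the difference was 0.44 without HxD1 and KO3. Rec8, the meiotic cohesin, was at 230.0 ± 50.2 and 159 ± 62.9 CPM (log2 0.53 ± 0.26). Dmc1, the meiotic strand exchange protein, was at 46.2 ± 3.89 and 36.3 ± 4.44 CPM, with all HxD libraries above all KO. Sycp1 was at 74.4 ± 16.7 and 55.6 ± 28 CPM, and Sycp3 at 22.1 ± 4.50 and 22.2 ± 15.3 CPM, both of the synaptonemal complex. The interval for Sycp3 ran from -0.89 to 0.89, close to 2-fold in either direction. Slc25a31, the germ cell ADP/ATP carrier, from the germline list, was at 152, 71.7 and 56.2 CPM against 81.5, 28.6 and 11.8 CPM (log2 1.20 ± 0.42), overlapping through KO1. It passed the threshold in 2 alternative analyses, with no filter on low counts and without KO1.

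Of 37 tested pluripotency and early germ cell genes, none was called. All HxD libraries were above KO for 0 and below for 5 (13.5%), against 4.92% and 3.72% of all tested genes. An unadjusted p under 0.05 was found for 0 higher and 2 lower, against 1.92% and 1.26% of all genes. A negative log2 fold change was found for 30, with a list median of -0.20. Over all tested genes 7906 of 16166 were negative, and 5626 of the 10703 averaging at least 5 CPM in HxD or KO. The list's median was -0.094 without KO2. Sox2, a core pluripotency factor, was at 260, 367 and 327 CPM in HxD against 392, 424 and 462 CPM in KO (log2 -0.42 ± 0.20). This difference ran from -0.54 to -0.23 over the 23 alternative analyses. WT was lower than KO in every library, with a mean of 221 CPM for Sox2. HxD was also below KO in all libraries for Tfap2c, the germ cell specification factor, at 237 ± 51.0 and 303 ± 17.0 CPM, Fbxo15 at 89.7 ± 10.96 and 123 ± 28.3 CPM, and Kdm1a, a histone demethylase, at 263 ± 9.83 and 323 ± 42.1 CPM. Pou5f1, which drove the reporter used in sorting, was at 449.5 ± 99.3 and 460.0 ± 141.5 CPM, bounded between -0.51 and 0.44. Nanog was at 117 ± 10.1 and 135 ± 12.6 CPM and Esrrb at 229 ± 24.2 and 264 ± 50.2 CPM, both with overlapping groups. In these sorted bulk samples, fewer cells of a kind and less RNA per cell cannot be told apart.

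In the p53 target and apoptosis list of 31 tested genes, 0 were above and 2 below in all libraries (6.45%), against 4.92% and 3.72% of all genes. The 2 with an unadjusted p under 0.05 were both lower, against 1.26% lower and 1.92% higher over all genes. Of the 31, 25 had a negative log2 fold change, and the median was -0.21. Over all tested genes 7906 of 16166 were negative. The p53 list median was -0.13 without HxD1 or without HxD2, -0.07 without KO3 and -0.05 without HxD1 and KO3. Aen, an exonuclease of the apoptotic response, was at 27.8, 46.5 and 40.15 CPM in HxD against 54.7, 60.6 and 65.2 CPM in KO (log2 -0.66 ± 0.26). The Aen difference ran from -0.82 to -0.41 over the 23 alternative analyses. Gadd45a, a stress response gene, was at 31.5, 28.7 and 38.5 CPM against 38.4, 35.4 and 82.8 CPM (log2 -0.66 ± 0.30). KO3 was the highest of these libraries, and without HxD1 and KO3 the Gadd45a difference was -0.13. Ccng1 was at 103 ± 18.05 and 119.9 ± 26.2 CPM against a WT mean of 44.2 CPM, Cdkn1a, the cell cycle inhibitor p21, at 85.4 ± 21.0 and 87.6 ± 11.1 CPM, and Bax at 179.6 ± 37.3 and 179 ± 29.9 CPM. These 3 had overlapping groups, and the Cdkn1a interval ran from -0.46 to 0.39.

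Among 34 tested genes of DNA methylation and demethylation, 0 were above and 3 below in all libraries (8.82%), against 4.92% and 3.72% of all genes. An unadjusted p under 0.05 was found for 2, both lower, against 1.26% lower and 1.92% higher over all genes. The median of the 34 was -0.16, or -0.095 without HxD3 and -0.092 without KO2. Lig3, the ligase that seals base excision repair, was at 99.5, 95.5 and 112 CPM in HxD against 117, 165 and 155 CPM in KO (log2 -0.50 ± 0.18). Tdg, the glycosylase that removes oxidized methylcytosine, was at 10.01, 14.46 and 13.7 CPM against 18.8, 20.1 and 21.0 CPM (log2 -0.65 ± 0.41). Ung, the uracil glycosylase, was at 316 ± 16.8 and 356 ± 25.4 CPM. All HxD libraries were below all KO libraries in these 3. Dnmt1, the maintenance methyltransferase, was at 740.4 ± 40.5 and 802 ± 89.8 CPM (-0.44 to 0.21), and Uhrf1, which brings it to replicated DNA, at 51.7 ± 5.93 and 48.5 ± 10.4 CPM (-0.37 to 0.55) with a WT mean of 98.1 CPM. Dnmt3a, a de novo methyltransferase, was at 113 ± 6.0 and 107 ± 31.9 CPM.

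Of 28 tested paternally expressed imprinted genes, 6 had all HxD libraries below KO (21.4%) and 1 above (3.57%). The shares of all tested genes were 3.72% below and 4.92% above. Of the 28, 1 had an unadjusted p under 0.05 and was lower, against 1.26% lower and 1.92% higher over all genes. The 6 were Slc38a4, Plagl1, Peg12, Usp29, Ddc and Nap1l5. Plagl1, a zinc finger growth regulator, was at 244, 184 and 232 CPM in HxD against 279.5, 299.8 and 319 CPM in KO, with WT at 58.3, 159 and 140.5 CPM (log2 -0.44 ± 0.23). Usp29, a deubiquitinase gene, was at 5.11 ± 1.29 and 9.94 ± 1.498 CPM, and Peg12 at 17.9 ± 1.81 and 27.4 ± 6.31 CPM. The 1 above was Dlk1, a Notch-like ligand, at 7.11 ± 0.36 and 3.29 ± 2.58 CPM. Peg3 overlapped, at 389 ± 109 and 416 ± 153 CPM, as did Igf2 at 85.6 ± 29.2 and 68.4 ± 11.3 CPM. The list's median was -0.15 and was -0.03 without HxD2 or without KO2 and -0.30 without HxD3. Of 28 tested maternally expressed imprinted genes, 1 was above (3.57%) and 2 below (7.14%) in all libraries. At an unadjusted p under 0.05 were 1 higher and 3 lower, and the median was -0.01. Phlda2, a placental growth brake, was at 227, 356 and 345 CPM against 382, 358 and 568 CPM, and its log2 fold change of -0.50 ± 0.21 was -0.08 without HxD1 and KO3. Grb10, a growth factor receptor adaptor, had a difference of -0.87 ± 0.39 that was 0.03 without them. H19 was at 319 ± 40.9 and 247 ± 64.6 CPM, with overlapping groups.

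For most genes of proteins through which TET1 could act without oxidation, the difference was bounded within 2-fold either way. Of 24 tested TET1 partners and co-repressors, all 24 had an interval within 1 on the log2 scale. The shares were 41.5% of all tested genes and 62.6% of those averaging at least 5 CPM in HxD or KO, as all 24 did. In all libraries 0 were above and 1 below (4.17%), against 4.92% and 3.72% of all tested genes. None had an unadjusted p under 0.05, and the median was -0.06, between -0.097 without KO3 and -0.030 without HxD1. Ogt was at 204 ± 18.6 and 261 ± 53.8 CPM (log2 -0.35 ± 0.19), Sin3a at 324 ± 27.8 and 333 ± 39.0 CPM (-0.39 to 0.31), and Prdm14, a germ cell repressor, at 54.8 ± 4.45 and 43.2 ± 9.52 CPM. The 1 with separated groups was Mta2 of the NuRD complex, at 157 ± 8.52 and 185 ± 3.90 CPM. Of 9 PRC2 subunits, which place the repressive H3K27 methyl mark, 8 were bounded in the same way (88.9%). In all libraries 1 of the 9 was above (11.1%) and 2 below (22.2%), against 4.92% and 3.72% of all tested genes. None had an unadjusted p under 0.05. The PRC2 median was -0.145, and -0.20 to -0.097 with single libraries left out. Suz12 was at 306, 295 and 307 CPM in HxD against 364, 417 and 359 CPM in KO, so its groups did not overlap (log2 -0.33 ± 0.17, -0.68 to 0.02). The catalytic subunit Ezh2 was below in all libraries at 234 ± 8.46 and 267 ± 10.8 CPM, its relative Ezh1 above at 56.5 ± 1.05 and 52.3 ± 2.07 CPM, and Eed overlapped at 116 ± 10.7 and 127 ± 4.23 CPM.

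Developmental regulators that Polycomb keeps silent were mostly too low to bound. Of 68 listed, 34 passed the filter on low counts, and 5 had an interval within 1 on the log2 scale (14.7%). The share of all tested genes was 41.5%, and 14 of the 34 averaged at least 5 CPM in HxD or KO. In all libraries 3 were above (8.82%) and 1 below (2.94%), against 4.92% and 3.72% of all tested genes. An unadjusted p under 0.05 was found for 1 of the 34, which was higher, against 1.92% of all genes. Their median of 0.39 was -0.05 without HxD3, 0.18 without HxD2, 0.21 without KO3 and 0.97 without KO2. Msx1, a homeobox gene of the BMP response, was 1 of the 3 above, at 24.35, 18.96 and 20.2 CPM in HxD against 18.1, 13.7 and 11.05 CPM in KO (log2 0.57 ± 0.38). Pax2 was at 0.6635 ± 0.559 CPM in HxD against 0 in all KO libraries, Tbx2 at 3.40 ± 1.52 and 0.687 ± 0.596 CPM, and Foxa1, the 1 below, at 0.913 ± 0.962 and 6.15 ± 5.36 CPM. Cdx2, a trophoblast and gut regulator, was at 113 ± 20.9 and 154 ± 65.0 CPM. Its log2 difference of -0.44 ± 0.27 was 0.02 without HxD1 and KO3.

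In the retinoic acid and BMP response list, 36 tested, 5 genes were above (13.9%) and 2 below (5.56%) in all libraries. The shares of all tested genes were 4.92% and 3.72%. An unadjusted p under 0.05 was found for 3, all higher, against 1.92% higher and 1.26% lower over all genes. The median of the 36 was -0.01. Smad9, a BMP signal transducer, was at 8.67, 4.75 and 4.70 CPM in HxD against 0.839, 0.704 and 0 CPM in KO, with WT at 11.5, 17.2 and 5.34 CPM (log2 3.54 ± 1.14). DESeq2 called Smad9 (adjusted p = 0.0308), as it did Snapc1 (0.00746) and Galnt11 (1.43e-05), and these were its only calls with a group mean of at least 5 CPM. Rara, a retinoic acid receptor, was at 47.5 ± 5.26 and 34.0 ± 10.4 CPM, and Rdh10, which makes retinaldehyde, at 19.6 ± 5.69 and 11.99 ± 2.32 CPM. Both had all HxD libraries above all KO libraries. Cyp26b1, which degrades retinoic acid, was at 7.93, 0.208 and 0.224 CPM in HxD against 0, 0.207 and 0 CPM in KO, so its mean rested on HxD1. Smad2 and Bmpr1a, a TGF-beta transducer and a BMP receptor, were below in all libraries, at 144 ± 20.9 and 171 ± 14.9 CPM and at 176 ± 2.20 and 194 ± 16.5 CPM.

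**Figure D4:**
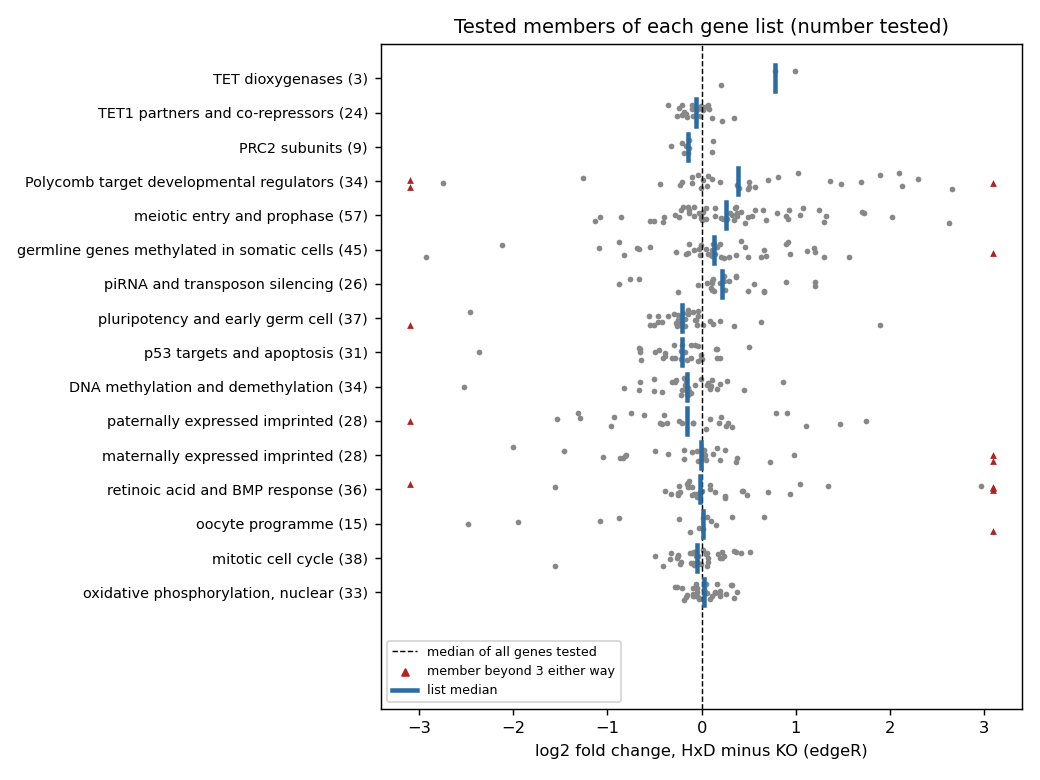
Log2 fold change of HxD minus KO for the tested members of each gene list (grey dots, number tested in parentheses), with the list median as a blue line and the median of all genes dashed. Members beyond 3 either way are red triangles, and no member of any list was called.

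**Figure D5:**
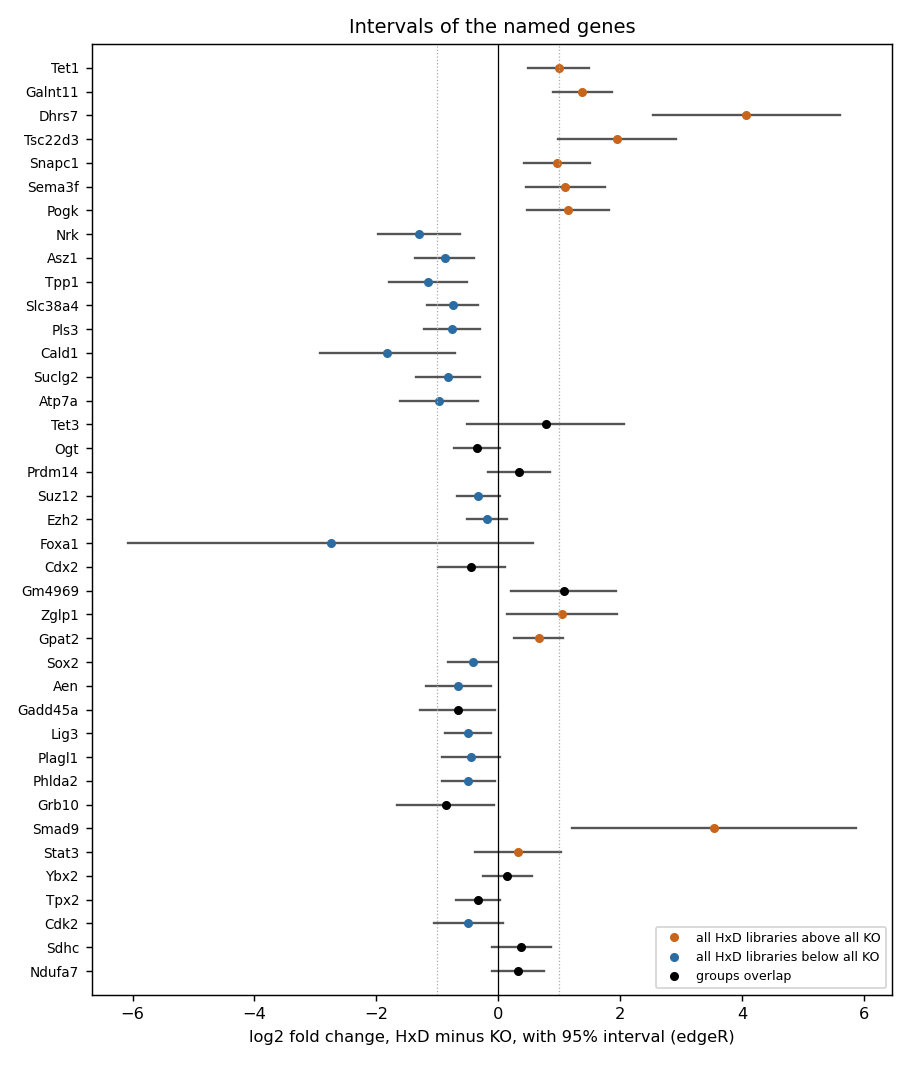
Log2 fold change of HxD minus KO with its 95% interval for the named genes. Orange points have all HxD libraries above all KO, blue all below, black overlap, and dotted lines mark 1 on the log2 scale either way. The intervals of Galnt11 and Tet1 cross a dotted line, as do those of many other genes shown, such as Nrk and Cald1. Those of Dhrs7 and Smad9 lie wholly beyond the line at 1, though neither gene was called.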

How the data were processed

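The deposited file was 1 table of whole-number counts per gene that the authors made, not normalized, with 35976 gene symbols and 12 library columns. The tools named in the submitters' processing notes are featureCounts 2.0.3, STAR 2.7.10b, Trim Galore 0.6.7, SAMtools 1.9 and FastQC, and the builds named are GRCm39 and mm10. Annotation, strand setting and the handling of reads shared between genes were not stated, so near-identical copies, overlapping genes and antisense partners are uncertain. Libraries were made from bead-selected poly(A) RNA with an NEB kit, per the labels' protocols. No molecular identifiers are described.

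Groups and replicate numbers came from the sample titles. The test was edgeR 4.0.16 in R 4.3.3 (quasi-likelihood F test, two-sided, TMM, default filterByExpr, 1 fit of 12 libraries with group as the only term, contrast HxD minus KO), with Benjamini-Hochberg adjustment over the 16166 genes kept of 22037 with a count. Standard errors are the log2 fold change divided by the square root of F, and 95% intervals use the t quantile at the fit's degrees of freedom. CPM values given for genes and marker sums are scaled by TMM. An exact permutation test of 3 against 3 libraries cannot go below p = 0.1 and was not used. The code was tested on simulated data. Replicates differed by more than sampling noise (chi-square divided by its degrees of freedom was 35.0 or more between HxD or KO libraries). Same-numbered HxD and KO libraries did not deviate together, so the numbers were not taken as pairs.

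Alternatives were DESeq2 1.42.0, limma-voom (limma 3.58.1) with and without quality weights, other scaling factors and filters, the 6 libraries alone, a replicate block, and libraries left out. Gene lists were written by hand from general knowledge. The members, lists and tests were chosen with earlier results of these data known. Genes named by rule were Tet1, in each direction the 8 of smallest p among separated groups with a mean of at least 5 CPM, predicted genes left out, and up to 2 of smallest p per list; a few of these genes are not reported here. Other list members were named after their values were seen, for separated groups or a known role. Promoters came from a RefSeq table of GRCm38.p6, matched by symbol, with CpG counted by script (Python 3.11.15, pandas 2.3.3).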

Additional observations from a re-analysis of the deposited data

How the results depend on the processing

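The count of called genes, 0 in the analysis reported, was 0 under limma-voom, with a mean of at least 5 CPM required and with only the 6 HxD and KO libraries. It was 1, higher in HxD, with the size factors of DESeq2 or upper-quartile factors (Galnt11 in both). DESeq2 called 28, 17 higher and 11 lower. Limma-voom with quality weights, which gave HxD1 a weight of 0.33 and KO3 one of 0.47, called 3, 1 higher and 2 lower. With no filter on low counts 10 were called, 8 higher and 2 lower. The fit with a replicate block called 2 (Dhrs7 and Galnt11), both higher, although same-numbered HxD and KO libraries share only a number (correlations of deviations 0.0006, -0.02 and -0.08 over 10402 genes). Leaving out single libraries gave 0 to 9 calls, 0 to 7 higher and 0 to 2 lower, with 0 without HxD2 and 9 without KO2. Leaving out HxD1 and KO3 gave 3, 2 higher and 1 lower, and leaving out HxD1, KO1 and KO3 gave 6, 4 higher and 2 lower, with KO2 alone assumed to vary like the other groups. The cause was not tested. Over all 23 alternatives 45 genes were called at least once, and only Dhrs7 and Galnt11 in more than 4. The number of genes bounded within 1 on the log2 scale ranged from 5062 to 7328. Of the named genes, 4 turned direction: Ybx2 (0.15, then -0.071 without HxD3, the other single libraries giving up to 0.26), Prdm14 (0.34, then -0.0068 without HxD1, KO1 and KO3), Cdx2 (-0.44, then 0.020) and Grb10 (-0.87, then 0.027), the last 2 without HxD1 and KO3. No gene under 5 CPM in both groups had its difference bounded, and low genes were often at 0 in HxD1, KO1 and KO3. Among the 6 HxD and KO libraries the total count was largest in HxD1, and the cause of the zeros was not tested.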

Other observations

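Mitotic, respiratory and oocyte genes were not described above. Of 38 tested mitotic cell cycle genes, 33 had an interval within 1 on the log2 scale (86.8%). The shares were 41.5% of all tested genes and 62.6% of those averaging at least 5 CPM in HxD or KO. None of the 38 had an unadjusted p under 0.05. In all libraries 1 was above (2.63%) and 3 below (7.89%), against 4.92% and 3.72% of all tested genes. The median log2 fold change of these mitotic genes was -0.05, or 0.035 without KO2, and it was also above 0 without HxD3. Ccna2, the S and G2 phase cyclin, was at 304, 288 and 299 CPM in HxD against 348, 363 and 356 CPM in KO. Cdk2 was at 25.1, 57.7 and 54.5 CPM against 65.9, 65.7 and 61.2 CPM, with HxD1 the lowest library. Mcm2, a subunit of the replicative helicase, was below in all libraries at 477 ± 8.48 and 521 ± 37.7 CPM, and the mitotic kinase gene Aurka was above at 173 ± 16.8 and 148 ± 11.5 CPM. Of 33 tested nuclear genes of oxidative phosphorylation, 31 were bounded within 1 on the log2 scale (93.9%), against the same shares, and 0 had separated groups. Their log2 differences ran from -0.28 in Ndufb3 to 0.37 in Sdhc. Their median of 0.03 was 0.28 without HxD1, KO1 and KO3. Of 15 tested genes of the oocyte programme, Stat3 was the 1 with separated groups, at 21.5, 21.96 and 23.0 CPM against 14.8, 20.2 and 18.1 CPM. Figla, a regulator of oocyte genes, was at 0, 0 and 0.448 CPM in HxD against 1.95, 0.621 and 0 CPM in KO, while WT1, WT2 and WT3 held 14.4, 2.20 and 3.03 CPM.

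A pair of abundant features had 1 library far above the rest and were named after their values were seen. Lars2, the mitochondrial leucyl-tRNA synthetase, was at 1110 CPM in KO1 and between 209 and 353 CPM in the other KO and HxD libraries. Mir6236 was at 951 CPM in KO1 and between 148 and 337 CPM in the others. Both were called lower in HxD with no filter on low counts and without KO2.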
